A study of Homo sapiens with 2 samples.

Results

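The genes described here are 10 upstream regulators of mTORC1, the growth-promoting kinase complex of mTOR. They are the sestrins SESN1, SESN2 and SESN3, the stress-induced inhibitor DDIT4, the mTOR-binding inhibitor DEPTOR, the TSC complex genes TSC1, TSC2 and TBC1D7, and the GTPase genes RHEB and RHEBL1. All 10 were listed among the 57485 genes of the deposited tables. They were chosen by name, at a time when the FPKM values and log2 ratios of several of them in the same libraries were already known, so their values are given as a description with no test. RNA was sequenced from ARP1 cells, a human multiple myeloma (MM) line, carrying a lentiviral doxycycline (Dox)-inducible shRNA against SRD5A1. SRD5A1 encodes steroid 5α-reductase type I. One untreated library (labelled without Dox) was set against one library labelled as treated with Dox, and both carry the hairpin vector. For the second of these, the genotype field reads SRD5A2 although the title reads SRD5A1. The dose and time of Dox for these libraries are not given in the sources used here, and with no Dox-treated cells lacking the hairpin, Dox and the hairpin cannot be told apart.

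SRD5A1 itself was listed at 13.04 FPKM without Dox and at 25.88 FPKM with Dox. The targeted RNA was thus higher where the label predicts it to be lower, and every direction below rests on the labels. All 8 plasma cell markers were at 15.73 FPKM or more in both libraries. The markers of B, T, myeloid, erythroid and stromal cells reached at most 1.39 FPKM, and CD3D was at 0 in both libraries. The 3 epithelial markers summed to 8.71 and 4.04 FPKM, respectively, and their part in the results was not tested. In bulk RNA, fewer cells of a type and less RNA per cell cannot be told apart.

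mTORC1 is switched on at the lysosome by RHEB in its GTP-bound state. The TSC complex, built from TSC1, TSC2 and TBC1D7, is the GTPase-activating protein that turns RHEB off, and growth factor signals through Akt relieve this brake. Amino acids act through the Rag GTPases, which bring mTORC1 to the lysosome, and sestrins hold this arm back by binding the GATOR2 complex. DDIT4, also called REDD1, favours the TSC complex, and DEPTOR binds mTOR directly. DDIT4 and SESN2 are classical stress-induced genes, and both are known as targets of ATF4. DEPTOR is known in myeloma for its high level in tumours with cyclin D or MAF translocations.

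FPKM values are counts scaled to effective transcript length and to the library total, so levels of different genes can be set beside each other on this scale. The expected counts summed to 4.59e+07 without Dox and 4.87e+07 with Dox, and 3 counts correspond to 0.0653 and 0.0616 CPM, the count scaled to the library total alone. The log2 ratio is that of FPKM with Dox over FPKM without Dox after adding a pseudocount of 0.1 to each, which understates the change of low genes. Intervals are exact 95% intervals of the counts and cover counting error only. With 1 library in each group there is no replicate check of any difference. Genes reaching 1 FPKM in either library (14859 genes) are called tested genes, although no p-value was computed for any of them. Of these, 17% exceeded 2-fold in favour of the library labelled with Dox and 6.41% exceeded 2-fold the other way. Higher genes made up 72.6% of the genes past 2-fold with the deposited FPKM, against 56.0% with the TMM factors of edgeR. The median log2 ratio of all tested genes was 0.15.

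Of the 10 genes, 5 were past 2-fold on the higher side with Dox, beside 17% of all tested genes. None was past 2-fold on the lower side. The 5 were SESN2, DDIT4, DEPTOR, RHEBL1 and TBC1D7, in the order of their log2 ratios. The remaining 5, TSC2, SESN3, RHEB, TSC1 and SESN1, had log2 ratios from 0.51 for TSC2 to -0.37 for SESN1. The median log2 ratio of the 10 genes was 0.92. TBC1D7 at 1.32 was the lowest of the members past the 2-fold line and TSC2 at 0.51 the highest of those short of it. All 10 genes were above 1 FPKM in both libraries, the lowest value being 2.84 FPKM for RHEBL1 in the library labelled without Dox.

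The start-site windows of 3 of the higher genes and of TSC2 are printed because they are the DNA next to which these RNA levels arise. They come from RefSeq on GRCh38.p14, hold 250 bases before and 50 bases after the start site, and are written 5′ to 3′ on the strand of the gene. Windows were found for 8 of the 10 genes (11 windows, since SESN1 has 3 and TSC2 has 2), and DEPTOR and RHEBL1 have none. Capitals mark the letters of 5 motifs searched on both strands: TGATGNAA (the C/EBP-ATF composite element bound by ATF4), CCAAT (the CCAAT box), ACGTG (the core of the hypoxia response element), GTAAACA (the FOXO site) and TATAAA (the TATA box).
SESN2 (chr1:28259268-28259567, forward strand): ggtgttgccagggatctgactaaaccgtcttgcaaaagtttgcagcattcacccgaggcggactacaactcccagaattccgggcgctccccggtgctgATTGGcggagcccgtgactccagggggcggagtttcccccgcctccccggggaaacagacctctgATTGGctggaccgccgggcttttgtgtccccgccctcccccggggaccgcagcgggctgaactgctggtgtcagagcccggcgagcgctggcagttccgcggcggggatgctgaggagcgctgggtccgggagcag
DDIT4 (chr10:72273674-72273973, forward strand): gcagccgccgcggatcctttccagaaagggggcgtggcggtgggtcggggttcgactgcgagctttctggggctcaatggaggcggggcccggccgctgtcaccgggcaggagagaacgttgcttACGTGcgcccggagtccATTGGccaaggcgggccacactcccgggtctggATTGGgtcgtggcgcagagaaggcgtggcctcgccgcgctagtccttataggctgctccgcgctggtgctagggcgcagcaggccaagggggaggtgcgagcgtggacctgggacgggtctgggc
TBC1D7 (chr6:13328488-13328787, reverse strand): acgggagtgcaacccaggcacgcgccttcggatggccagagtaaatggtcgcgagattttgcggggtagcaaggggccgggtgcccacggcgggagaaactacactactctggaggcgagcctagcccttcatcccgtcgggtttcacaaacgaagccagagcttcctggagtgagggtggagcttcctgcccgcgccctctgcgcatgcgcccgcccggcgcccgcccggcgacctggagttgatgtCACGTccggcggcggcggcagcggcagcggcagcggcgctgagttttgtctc
TSC2 (chr16:2047735-2048034, forward strand): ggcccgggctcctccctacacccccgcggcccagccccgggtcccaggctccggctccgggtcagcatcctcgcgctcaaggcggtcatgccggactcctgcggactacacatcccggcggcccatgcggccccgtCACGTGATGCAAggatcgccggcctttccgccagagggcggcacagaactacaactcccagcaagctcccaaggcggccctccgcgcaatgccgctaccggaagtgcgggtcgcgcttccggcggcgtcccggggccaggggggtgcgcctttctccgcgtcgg

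SESN2 held a pair of CCAAT letters on the reverse strand, at positions -151 and -86 from the start site. DDIT4 also held 2 such matches, at -108 and -75, and 1 ACGTG match at -125. TBC1D7 held 1 ACGTG match at -2, on the reverse strand. RHEB held 2 CCAAT matches as well and 1 ACGTG match at -81, so both features were shared with a gene whose log2 ratio was 0.14. SESN1, whose log2 ratio was -0.37, held CCAAT matches at -75 and -90, each in a different window. Among 35116 windows of the same length, 34.6% held CCAAT and 21.4% held ACGTG. The only TGATGNAA match among the 11 windows was in TSC2 at -110, where it overlaps an ACGTG match at -113 and the match to its other strand at -114. Of all windows, 3.62% held TGATGNAA. None of the 11 windows held GTAAACA or TATAAA, found in 3.42% and 11.5% of all windows. A match is a run of letters and not a shown binding site, and its absence concerns this window alone.

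**Figure D1:**
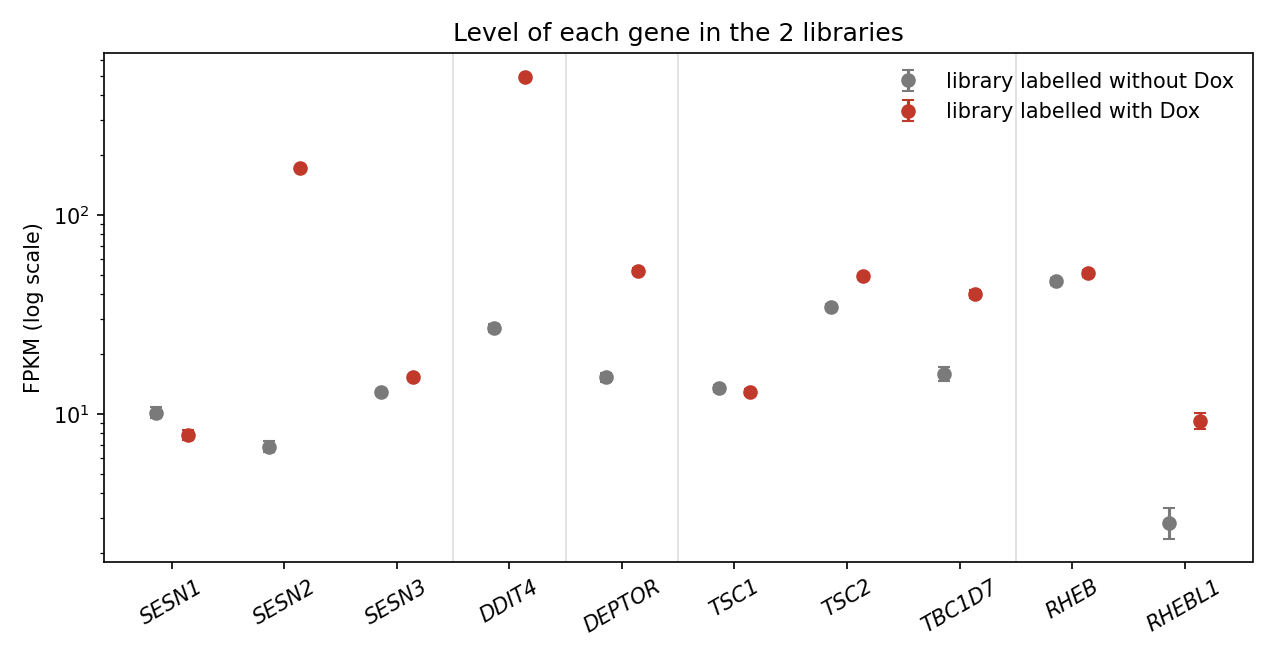
FPKM (log scale) of each of the 10 genes in the library labelled without Dox (grey) and the library labelled with Dox (red), with bars for the exact 95% counting interval. SESN2 and DDIT4 went from 6.87 and 27.09 FPKM to 172.87 and 492.03 FPKM, while the paired points of RHEB, TSC1, SESN1 and SESN3 lay close to each other.

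The sestrins are paralogs that act as sensors of amino acids and stress upstream of the Rag GTPases. SESN2 (ENSG00000130766.4, chromosome 1 from 28259527 to 28282491), a leucine-sensing member, was listed at 6.87 FPKM (1013 counts) without Dox. With Dox it was listed at 172.87 FPKM (27017 counts). This is a 25.2-fold difference, with a log2 ratio of 4.63 (counting interval 4.56 to 4.74). SESN2 was the lowest of the 3 sestrins in the library labelled without Dox and the highest of them in the other library. Its log2 ratio ranked 64 among the 14859 tested genes, and by level it moved from rank 8596 to rank 558. SESN2 has 1 annotated transcript, so no shift between transcripts enters its value.

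SESN1 (ENSG00000080546.13, chromosome 6 from 108986437 to 109094819), known as a FOXO target, was listed at 10.16 FPKM without Dox and at 7.85 FPKM with Dox. Its log2 ratio was -0.37 (-0.50 to -0.24). The count itself did not fall, being 954 without Dox and 1050 with Dox, and in CPM, which has no length term, the log2 ratio was 0.05 (-0.08 to 0.18). With scaling to the library total, the negative sign of the SESN1 value therefore comes from the length by which counts are divided. The CPM interval includes 0. The listed mean transcript length of SESN1 was 2288.75 bases without Dox and 2989.92 bases with Dox. Its 7 annotated transcripts run from 381 to 3509 bases, and the longest starts far upstream of the others that are protein-coding. From the mean lengths, the 3509-base transcript took between 34.4% and 83.4% of the SESN1 molecules estimated with Dox, and between 0 and 61.0% without Dox. These bounds overlap. The 3 protein-coding transcripts together, all above 2000 bases, took 52.9% to 83.1% of the molecules without Dox and 80.0% to 100% with Dox, and the other 4 are short and non-coding.

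SESN3 (ENSG00000149212.11, chromosome 11 from 95165513 to 95232541), another FOXO target, was listed at 12.89 FPKM without Dox and 15.33 FPKM with Dox. Its log2 ratio of 0.25 (0.20 to 0.30) lay close to the median of all tested genes. Its mean length stayed near 9.3 kb. The long 9558-base transcript took at least 96.4% of its molecules in each library. With this length, SESN3 had the most counts of the 3 sestrins without Dox (5350). Its level there was also the highest of the 3, above the 10.16 FPKM of SESN1, and their counting intervals did not overlap.

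Summed over the family, sestrin RNA was 29.92 FPKM without Dox and 196.05 FPKM with Dox, a 6.55-fold difference. SESN2 made up 23.0% of this sum without Dox and 88.2% with Dox. The share of SESN3 went from 43.1% to 7.82% and that of SESN1 from 33.96% to 4.004%. In shares of raw counts with no length term, SESN2 made up 13.8% and 77.6%. Per length, SESN2 RNA stood at 0.676 times that of SESN1 without Dox and at 22.02 times with Dox. The family thus went from 3 members at comparable levels to one dominated by SESN2, although the RNA of SESN3 was not lower.

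DDIT4 (ENSG00000168209.4, chromosome 10 from 72273920 to 72276036), which restrains mTORC1 through the TSC complex under hypoxia, energy stress and glucocorticoids, was listed at 27.09 FPKM (1767 counts) without Dox. With Dox it was listed at 492.03 FPKM (34952 counts), the highest level of the 10 genes. The difference was 18.2-fold, with a log2 ratio of 4.18 (4.11 to 4.25). DDIT4 ranked 82 among all tested genes by log2 ratio. Its level moved from rank 4078 to rank 192 of 14859. DDIT4 RNA stood at 3.94 times SESN2 RNA without Dox and at 2.85 times with Dox, so the order of the pair was the same in both libraries. The make-up of DDIT4 transcripts also differed. The 1748-base coding transcript took 91.5% to 93.1% of the DDIT4 molecules without Dox and 95.5% to 96.4% with Dox, and the rest was assigned to the 2 short transcripts annotated with a retained intron. These ranges are bounds from the mean length and carry no error from the estimation of the transcripts.

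DEPTOR (ENSG00000155792.9, on chromosome 8), which encodes a protein that binds mTOR in both of its complexes, was listed at 15.29 FPKM without Dox and at 52.59 FPKM with Dox. The counts were 1633 and 5947. The 3.44-fold difference gave a log2 ratio of 1.78 (1.70 to 1.86), higher than that of 93.7% of the tested genes. Its mean length of about 2569 bases, that of its longest transcript, was nearly the same in both libraries. By level, DEPTOR went from below RHEB (46.36 FPKM) to beside it (51.01 FPKM).

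In the TSC complex, the 3 genes did not move alike. TSC1 (ENSG00000165699.14, chromosome 9 from 132891348 to 132946874) encodes hamartin, the scaffold that stabilises TSC2. It was listed at 13.50 FPKM without Dox and 12.91 FPKM with Dox. Its log2 ratio of -0.06 had a counting interval of -0.14 to 0.01, which includes 0, and the sign turned with TPM (0.03). TSC2 (ENSG00000103197.17, chromosome 16 from 2047465 to 2089487) encodes tuberin, the catalytic subunit. It was listed at 34.51 FPKM without Dox and 49.17 FPKM with Dox, and its log2 ratio was 0.51 (0.45 to 0.57). TSC2 was the most abundant of the 3 in both libraries.

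TBC1D7 (ENSG00000145979.17, chromosome 6 from 13266542 to 13328583) encodes the small stabilising subunit. It was listed at 15.98 FPKM (579 counts) without Dox and at 40.18 FPKM (1699 counts) with Dox. The log2 ratio was 1.32 (1.19 to 1.47), the largest of the complex. TBC1D7 RNA stood at 1.18 times TSC1 RNA without Dox and at 3.11 times with Dox, per length. For TSC2 against TSC1 the corresponding values were 2.56 and 3.81. As a share of the summed FPKM of the complex, TBC1D7 went from 24.97% to 39.3% and TSC1 from 21.1% to 12.6%. In shares of raw counts, TBC1D7 made up 8.54% and 17.6%.

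The lengths assigned to the TSC genes bear on these levels. TSC2 has 69 annotated transcripts, and its mean length was 2497.51 bases without Dox and 2401.66 bases with Dox. The 17 transcripts of at least 5000 bases therefore took at most 47.1% and 45.1% of the TSC2 molecules, and more than that was assigned to shorter transcripts, most of them non-coding. For the 6 TSC1 transcripts of at least 8000 bases, the upper bounds were 51.0% and 52.9%. An FPKM summed over such transcripts is not the level of the full-length mRNA.

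RHEB (ENSG00000106615.9, chromosome 7 from 151466012 to 151520120), the GTPase that activates mTORC1, was listed at 46.36 FPKM without Dox and 51.01 FPKM with Dox. Its log2 ratio was 0.14 (0.06 to 0.22), close to the median of all tested genes, and it was -0.07 with the TMM factors of edgeR. In CPM, RHEB stood at 51.6 and 51.7. The longest RHEB transcript, of 2075 bases, took at most 54.3% of the RHEB molecules without Dox and 48.2% with Dox. The RHEB FPKM is therefore not the level of that transcript alone. RHEB was the most abundant of the 10 genes without Dox, and with Dox it came after DDIT4, SESN2 and DEPTOR. RHEBL1 (ENSG00000167550.10, chromosome 12 from 49064685 to 49070025), a paralog that can also activate mTORC1, was listed at 2.84 FPKM (125 counts) without Dox. With Dox it was listed at 9.25 FPKM (433 counts), a log2 ratio of 1.67 (1.41 to 2.003). RHEBL1 was the lowest of the 10 genes without Dox, and SESN1 was the lowest with Dox. RHEB stood at 16.3 times RHEBL1 without Dox and at 5.51 times with Dox. The summed FPKM of the pair was 49.20 and 60.26.

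**Figure D2:**
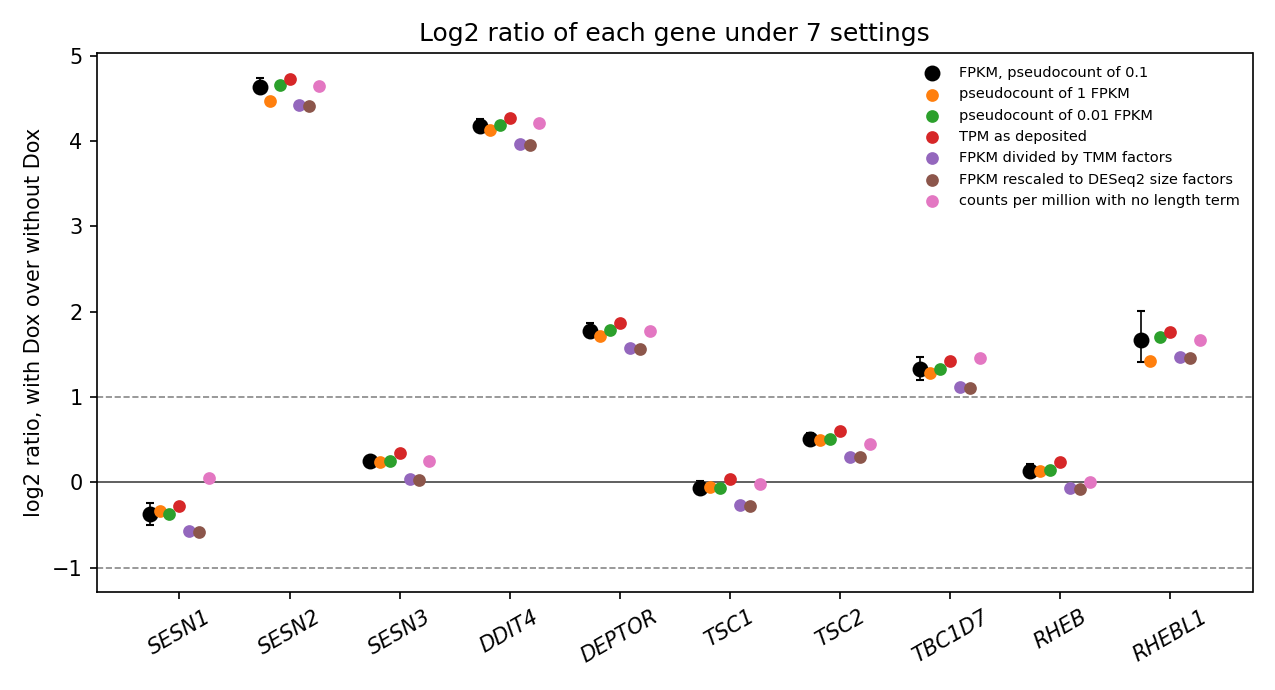
Log2 ratio (with Dox over without Dox) of each gene with the deposited FPKM and a pseudocount of 0.1 (black, with the exact 95% counting interval) and under 6 other settings (colours), with dashed lines at 2-fold. SESN2, DDIT4, DEPTOR, TBC1D7 and RHEBL1 were above the upper line under all 7 settings, whereas SESN1, TSC1 and RHEB had values on both sides of 0.

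Among the brakes and the activator, the order of levels changed. RHEB RNA exceeded that of every brake in the library labelled without Dox, with DDIT4 at 0.584 times and SESN2 at 0.148 times RHEB. With Dox, DDIT4 stood at 9.65 times and SESN2 at 3.39 times RHEB. TSC2 stood at 0.744 and 0.964 times RHEB. With Dox, the levels of DEPTOR (52.59 FPKM), RHEB (51.01 FPKM) and TSC2 (49.17 FPKM) were neighbours in the order, and the counting intervals of DEPTOR and RHEB overlapped, as did those of RHEB and TSC2. Without Dox, the levels of TBC1D7 (15.98 FPKM) and DEPTOR (15.29 FPKM) and those of TSC1 (13.50 FPKM) and SESN3 (12.89 FPKM) were neighbours with overlapping intervals. These are RNA levels, and the amounts and phosphorylation of the proteins were not measured in these libraries.

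**Figure D3:**
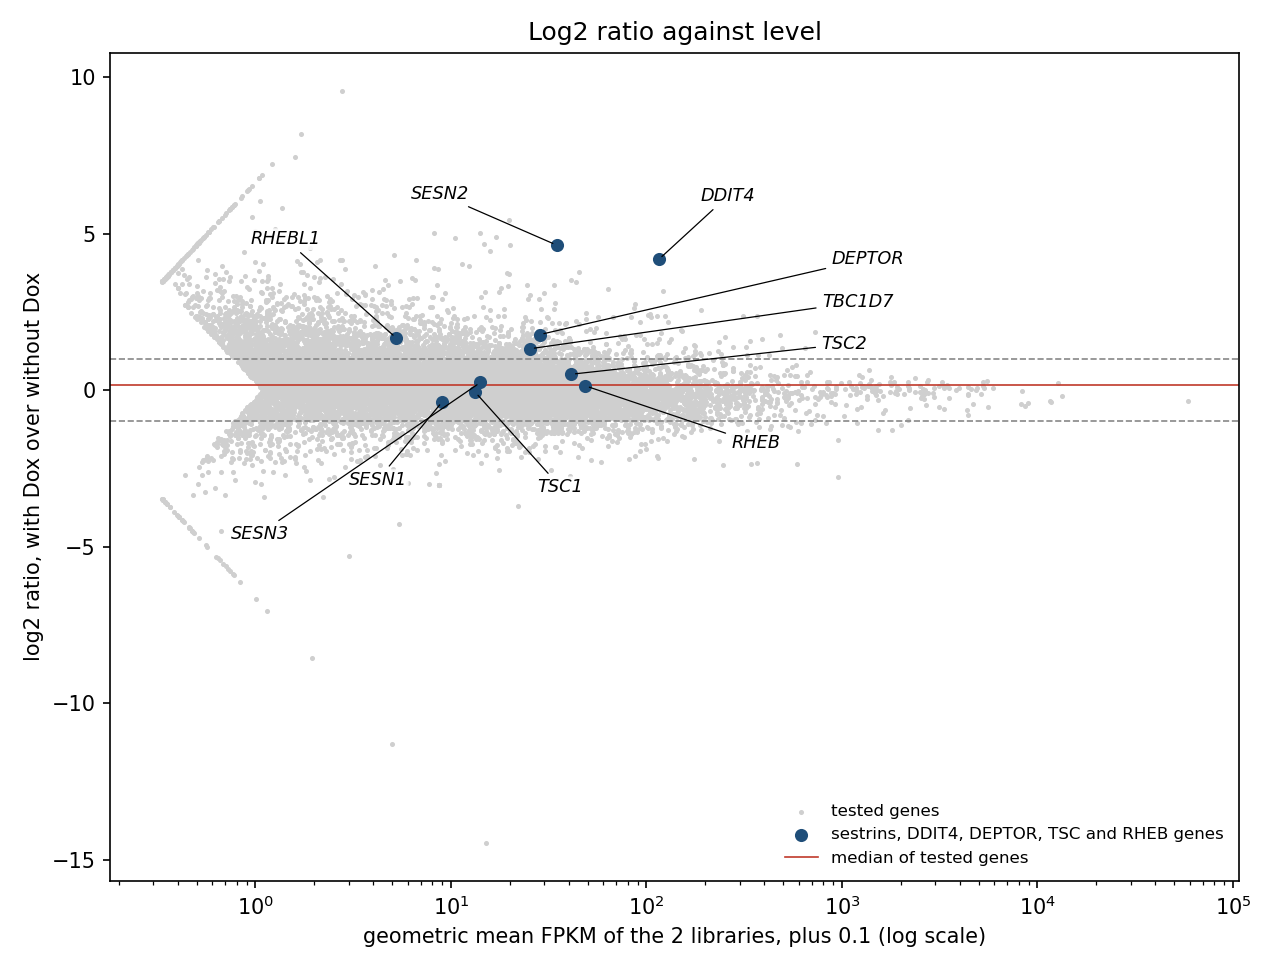
Log2 ratio (with Dox over without Dox) against the geometric mean FPKM of both libraries on a log scale for 14859 tested genes (grey) and the 10 genes (blue), with dashed lines at 2-fold and a red line at the median of 0.15. SESN2 and DDIT4 lie at the upper edge of genes of their level, and SESN3 and RHEB lie near the median line.

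Reads can be split between genes that overlap or resemble each other, and the strand of the libraries is not given in the sources used here. SESN2, SESN3 and RHEBL1 shared no run of 100 bases with a transcript of another gene. DDIT4 shared 31.6% of its 100-base runs with DDIT4-AS1 on the opposite strand, which was listed with 0 and 4.84 counts. TBC1D7 shared 10.8% of its runs with other genes. These were AL008729.1, listed with 31 and 167 counts, and PHACTR1, listed with 44.04 and 266 counts. Both were higher with Dox, as was TBC1D7, and their part in the TBC1D7 value was not tested. TSC2 shared 4.25% of its runs with NTHL1 and PKD1 on the opposite strand, which went from 30.28 to 14.19 FPKM and from 38.98 to 57.15 FPKM, respectively. DEPTOR shared 5.89% of its runs with AP005717.1, at 18.5 and 91.7 counts. RHEB shared 4.35% of its runs, among others with its pseudogenes RHEBP1 and RHEBP2. Of the genes sharing runs with RHEB, SHLD2P1 had the most counts, 8.63 without Dox and 1.01 with Dox.

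The genes around the switch were read from 8 lists, of which 86 different genes were tested. All 8 lists were chosen with earlier results of these data known, so their values are a description only. Of these 86, 9 were past 2-fold on the higher side and 4 on the lower side with Dox, beside 17% and 6.41% of all tested genes. Their median log2 ratio was 0.18, against 0.15 for all tested genes and 0.92 for the 10 genes. The list of transcription factors known to act on the brakes had the highest median, 0.87, with 5 of 11 tested genes past 2-fold. All 11 were above 0, beside 58.4% of all tested genes, and 10 were above 0 with the TMM factors, beside 47.3%. DDIT3 (CHOP), a stress factor downstream of ATF4, went from 8.69 to 72.90 FPKM (log2 ratio 3.05). CEBPB, which pairs with ATF4, went from 3.62 to 19.24 FPKM (2.38). NR3C1, the glucocorticoid receptor, went from 15.33 to 59.80 FPKM (1.96), and ATF4 itself from 406.22 to 1026.75 FPKM (1.34). The fifth, TP63, stayed below 5 FPKM. MAF, the factor linked to high DEPTOR in myeloma, went from 37.55 to 52.39 FPKM (0.48), and was chosen here after its values were seen. Whether any of these factors acts on the 10 genes in these cells was not tested.

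Over all tested genes, 17% were more than 2-fold higher with Dox and 6.41% lower. Among 13 tested genes of the Rag, Ragulator and folliculin list, 1 was more than 2-fold higher and 0 lower. It was RRAGC, a Rag GTPase, which went from 8.45 to 17.32 FPKM (log2 ratio 1.03). RRAGC fell short of 2-fold with the TMM factors (0.82), the DESeq2 size factors (0.81) and a pseudocount of 1 FPKM (0.96). The median of this list was 0.36. Of its 13 genes, 10 were above 0 with the deposited FPKM and 9 with the TMM factors, beside 58.4% and 47.3% of all tested genes. The amino acid sensing list of GATOR and KICSTOR subunits and amino acid sensors had 15 tested genes with a median of 0.03. Of these, 1 was higher and 1 lower. They were C7orf60, which encodes the S-adenosylmethionine sensor SAMTOR, at 1.64 and 4.07 FPKM, and GATSL2 (CASTOR2), at 4.73 and 2.26 FPKM. With a pseudocount of 1 FPKM both fell short of 2-fold (0.94 and -0.81), neither reached 5 FPKM, and GATSL2 also fell short with TPM (-0.94). Of 10 tested genes of the AMPK and LKB1 list, 9 had a log2 ratio above 0 with the deposited FPKM and 6 with the TMM factors, beside 58.4% and 47.3% of all tested genes. The median was 0.28, and only CAB39L, an LKB1 scaffold gene, passed 2-fold (from 1.92 to 5.04 FPKM, 1.35). AMPK phosphorylates TSC2 when energy is low.

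None of the 13 kinases of TSC2 passed 2-fold in either direction, beside 17% higher and 6.41% lower of all tested genes. Their median was -0.05. Their log2 ratios ran from -0.76, that of RPS6KA1, to 0.88, and RPS6KA1 was named after its value was seen. For the turnover of DEPTOR and DDIT4, the median of 10 genes was -0.30, with 1 higher and 1 lower. TXNIP, whose protein is reported to stabilise DDIT4, went from 60.64 to 272.07 FPKM (2.16). DDB1, the adaptor of the CUL4A ligase that marks DDIT4 for degradation, went from 145.73 to 61.38 FPKM (-1.25). Whether TXNIP or DDB1 acts on DDIT4 in these cells was not tested. The 5 genes of RHEB lipid processing had a median of 0.14, and none passed 2-fold. The mTOR complexes had 9 tested genes with a median of -0.03 and 2 lower genes. These were PRR5L, an mTORC2-associated gene, from 5.33 to 1.35 FPKM (-1.90), and TELO2, whose protein helps assemble mTOR, from 25.92 to 12.56 FPKM (-1.04). TELO2 fell short of 2-fold with TPM (-0.94) and with a pseudocount of 1 FPKM (-0.99). The log2 ratio of MTOR itself was -0.09 and that of RPTOR 0.04, both named after their values were seen.

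Over both libraries, the log2 ratio of SESN2 was most closely matched, among genes reaching 10 FPKM in either library, by ATF3 (4.63), SLC6A9 (4.67) and CHAC1 (4.45). ATF3 is a stress-induced transcription factor, SLC6A9 a glycine transporter and CHAC1 a glutathione-degrading enzyme. Nearest to DDIT4 were MEF2B (4.17), TRPM8 (4.16) and AC010883.5 (4.15). The likeness is that of a single ratio between 2 libraries.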

How the data were processed

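Poly(A) RNA of 2 libraries was sequenced as 150-base paired ends (Illumina NovaSeq). The submitters' processing notes name Bowtie 0.12.2, HISAT2 2.1.0, StringTie 1.3.4d and hg19, with no roles. The authors deposited expected counts, which apportion reads over transcripts, TPM and FPKM (counts divided by effective length and library total), in the RSEM layout. The deposited length is the abundance-weighted mean over transcripts. All 168 transcripts listed for the 10 genes matched GENCODE release 29, whose GRCh38 coordinates are printed. The tables hold no coordinates, so hg19 positions were not used.

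Log2 ratios of FPKM, counts past 2-fold, exact (Clopper-Pearson) 95% intervals of the count ratio and exact Poisson intervals of FPKM were computed with Python 3.11.15, pandas 2.3.3, numpy 2.4.6 and scipy 1.17.1, and plots with matplotlib 3.10.9. For the intervals and the scaling factors, expected counts were rounded. The edgeR comparison of the study was not run, because 1 library per group gives no dispersion. edgeR 4.0.16 and DESeq2 1.42.0 (R 4.3.3) gave only the factors of alternative scalings, over genes with at least 10 counts. The ratio step was tested on simulated data. Bounds on transcript shares use the deposited mean length and the annotated lengths. The 10 genes and the lists were chosen with earlier results of these data known. Genes named from a list were past 2-fold with at least 5 FPKM in 1 library, at most 6 per list; those named outside this rule are stated as such or given to account for a count. Annotation columns were not used, and a few genes of the lists are not reported here by name.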

Additional observations from a re-analysis of the deposited data

How the results depend on the processing

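SESN2, DDIT4, DEPTOR, TBC1D7 and RHEBL1 were past 2-fold under all 7 settings of scale and pseudocount, with lowest log2 ratios of 4.42, 3.96, 1.56, 1.11 and 1.42, respectively. SESN1 ranged from -0.58 to 0.05, TSC1 from -0.28 to 0.03 and RHEB from -0.08 to 0.23. The TMM factors and the DESeq2 size factors put the median of all tested genes at -0.05 and -0.06 and gave 1527 and 1562 lower genes in place of 953. A pseudocount of 1 FPKM gave 1606 higher genes in place of 2521, and a limit of 1.5-fold gave 4358 higher and 2288 lower, all among 14859 genes. No filter on low values gave 4735 higher and 1897 lower genes among 57485. At least 5 FPKM gave 1256 and 603 among 10480. Counts from different filters refer to different numbers of genes and cannot be compared directly. In the lists around the switch, 2 genes were lower with a pseudocount of 1 FPKM and 2 with TPM. Over all tested genes, 651 of 14859 and 801 of 15274 were lower under these settings. At 1.5-fold, 16 of the 86 list genes were higher and 9 lower, beside 4358 and 2288 of 14859 tested genes. In shares of counts with no length term, SESN2 made up 77.6% of the sestrins and TBC1D7 17.6% of the TSC complex with Dox. The count of the 10 genes past the limit was 5 higher and 0 lower under every alternative run, with a limit of 1.5-fold in 1 of them. Beside this, the higher genes were 4735 of 57485 with no filter and 4358 of 14859 at 1.5-fold. No paired analysis was possible because each group holds a single library. Depth limits RHEBL1 most, at 125 counts without Dox.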

Other observations

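Of the other factors known to induce sestrins and DDIT4, TP63 was at 0.69 and 2.73 FPKM, and TP73 had 0 and 1 counts. The FOXO genes were higher in level, with FOXO3 at 40.93 and 48.92 FPKM and FOXO1 at 10.17 and 16.93 FPKM. FOXO4 was nearly level, at 6.30 and 6.71 FPKM (log2 ratio 0.09). HIF1A, a hypoxia factor, went from 12.65 to 16.76 FPKM, and NFE2L2, the oxidative stress factor NRF2, from 27.53 to 50.36 FPKM (log2 ratio 0.87). EPAS1, of the same list but below the 1 FPKM filter, went the other way, from 0.29 to 0.23 FPKM (-0.24). These genes were singled out after their values were seen, and whether any of them acts on the 10 genes in these cells was not tested.

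Some non-coding genes that overlap DEPTOR and TBC1D7 also had more counts with Dox. AP005717.1, on the strand opposite to DEPTOR, had 18.5 and 91.7 counts, and AL008729.2, on the strand of TBC1D7, had 9.96 and 40.8 counts. AP000787.1, opposite to SESN3, had 251 and 278 counts.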
